A study of Mus musculus with 6 samples.

Results

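The cadherin superfamily genes described here are the classical and related cadherins named Cdh with a number, the giant cadherins Fat1 to Fat4 and Dchs1, the seven-pass cadherins Celsr1 to Celsr3, and the protocadherins that lie outside the Pcdha, Pcdhb and Pcdhg clusters. They were chosen by a rule on gene symbols, set with earlier results of these data known. The rule gave 43 of the 23999 genes in the count table. Of these, 31 had 10 or more reads in the deepest library of either treatment and were tested, and 12 did not. Of the tested genes, 25 reached that minimum in both first replicates, Cdh5, Cdh12, Cdh18, Cdh20 and Pcdh18 only in 4OHT replicate 1, and Cdh17 only in vehicle replicate 1. Just inside the minimum lay Pcdh18 with 12 reads and Cdh12 and Cdh20 with 13, and just outside lay Cdh8 with 8 and Cdh19 and Pcdh10 with 6. The cells were mouse embryonic stem cells, cultured pluripotent cells of the early embryo, and polyadenylated RNA was sequenced from 3 samples treated for 6 days with 4-hydroxytamoxifen (4OHT) and 3 samples treated for 6 days with ethanol vehicle. By the labels both groups carried the same genotype, a floxed element called -5 together with an exogenous, V5-tagged mouse Nanog, and the study as titled concerned an enhancer of Nanog. 4OHT is commonly used to switch on Cre recombinase fused to an oestrogen receptor, although the labels name no Cre. No 4OHT-treated cells without the floxed element were analysed here, so effects of 4OHT itself and of a change at the element cannot be told apart. The labels do not say whether replicates were separate cultures, so p-values measure the spread between these samples.

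Cadherins are calcium-dependent adhesion proteins. Classical cadherins bind the same cadherin on a neighbouring cell and are tied to actin inside the cell by catenins, and E-cadherin, the product of Cdh1, holds embryonic stem cell colonies together. FAT and DCHS proteins bind each other across cell borders and act in planar polarity and growth control, CELSR proteins are core planar polarity proteins, and nonclustered protocadherins are weaker adhesion molecules best known from the nervous system.

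The shallowest library, 4OHT replicate 2, held 515388 counts, and the other 5 held between 20030423 and 55194644. Levels are given as CPM, counts per 1000000 counts of the scaled library. In 4OHT replicate 2 a single read was worth 1.90 CPM and 16 of the 31 tested members had no read, so its values for low genes carry little information. Nanog, the gene whose enhancer was studied, stood at 177, 171 and 192 CPM in the 4OHT libraries, against 632, 662 and 646 CPM in the vehicle libraries (log2 fold change -1.82, SE 0.06, edgeR adjusted p = 2.91e-14). Whether the tagged copy contributes reads to this symbol cannot be told from the table. Pluripotency markers summed to 5611 to 5889 CPM in 4OHT and 5840 to 6040 CPM in vehicle libraries, and all 8 had reads in both groups. At an edgeR adjusted p under 0.05, 1 of the 8 was higher and 3 were lower in 4OHT. That is 50% called, beside 21.9% of all tested genes (median log2 fold change of the 8 markers -0.02).

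Of the 31 tested members, 6 were higher and 6 were lower in 4OHT than in vehicle cells at an edgeR adjusted p under 0.05, and 19 did not pass. These 12 are 38.7% of the tested members, beside 21.9% of all 15814 tested genes (11.1% higher, 10.8% lower), and the difference between the shares was not tested. The same 12 passed with RLE scaling (21.9% of all tested genes), without a low-count filter (17.9%) and with a block for replicate number (27.5%). Leaving out vehicle replicate 1, 2 or 3 kept all 12, with 17.2%, 15.7% and 16.4% of all genes called, as did leaving out 4OHT replicate 1, 2 or 3, with 23.9%, 20.1% and 26.8%. DESeq2 with all libraries called 5 members, 2 higher and 3 lower, and 7.48% of the genes to which it gave an adjusted p (4.34% higher, 3.14% lower). Without 4OHT replicate 2 DESeq2 called the same 12 members, and 15.5% of genes. Quantile-normalized limma-voom called 8 of the 12, 3 higher and 5 lower, and 13.9% of genes (7.65% higher, 6.25% lower), and 10 of the 12 passed among the genes kept by filterByExpr (22.4%). The genes that rose were Pcdh17, Cdh9, Pcdh19, Cdh4, Celsr2 and Fat1, and those that fell were Cdh17, Fat2, Pcdh1, Cdh3, Celsr1 and Cdh1. In bulk RNA such as this, fewer cells of a type and less RNA per cell cannot be told apart. The median log2 fold change of the tested members was 0.23, also with Cdh17 at the bound given further on, beside -0.01 for all tested genes. This median includes the 5 members that entered only through 4OHT replicate 1, with log2 fold changes from 0.09 (Cdh18) to 1.34 (Cdh12). The filter itself can therefore raise it, and no difference in medians was tested. At least 2-fold changes were found for 5 members, with 3 higher and 2 lower, and such changes were found in 4.36% of all tested genes. Cdh17, counted among the 12 calls and among these 2 falls, entered the test only through vehicle replicate 1. The filter thus kept it through the group where it was high.

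**Figure D1:**
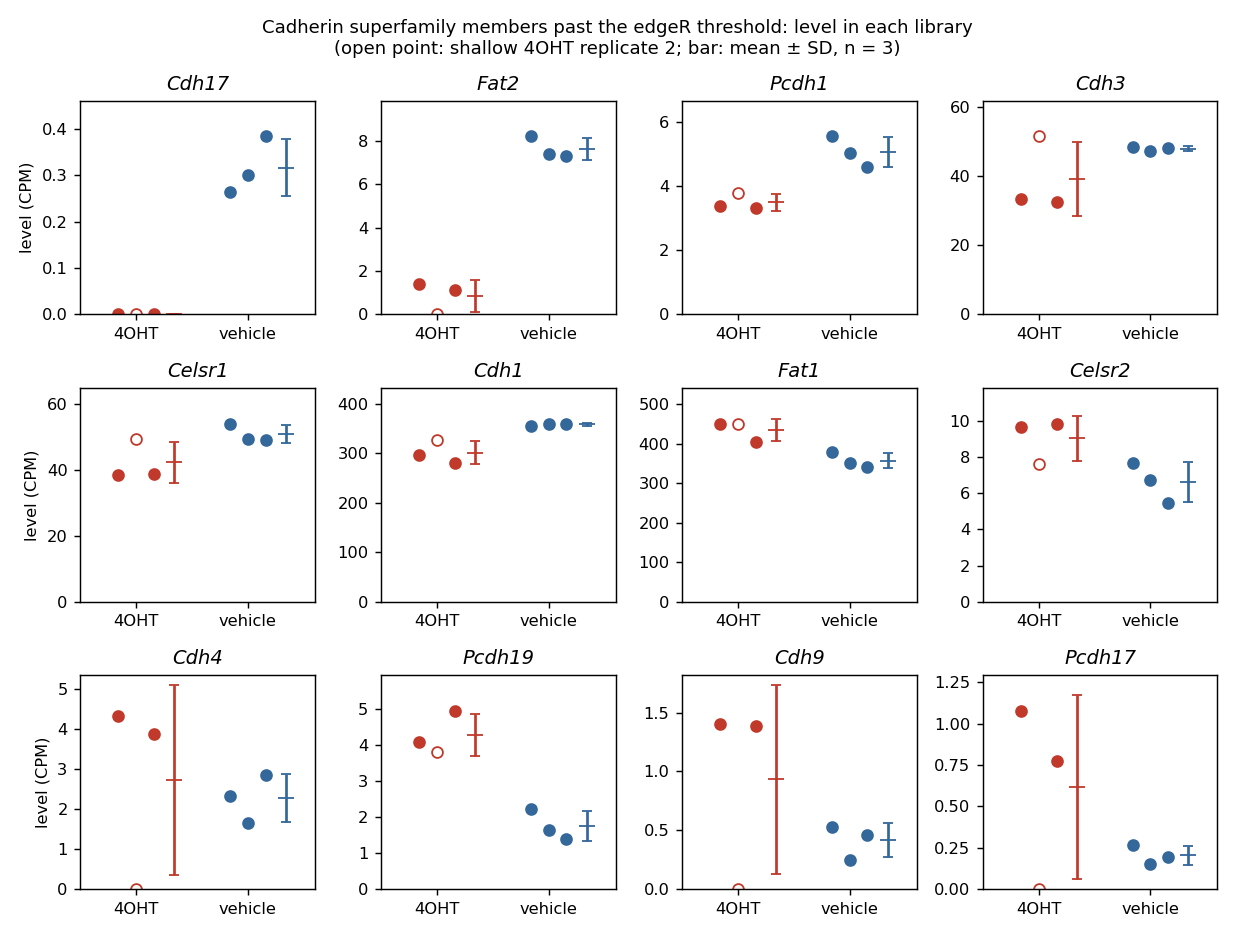
Level in each library of the 12 members past the edgeR threshold, in CPM on linear axes that start at 0, with 4OHT left of vehicle. Points are libraries, the open point is the shallow 4OHT replicate 2, and bars are mean ± SD (n = 3). Fat2 lies between 0 and 1.41 CPM in 4OHT libraries, against 7.29 to 8.21 CPM in vehicle libraries, and for Cdh3 and Celsr1 the open point stands above the other 4OHT libraries.

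By level the set was dominated by 2 genes. Fat1 and Cdh1 made up 50.1% and 34.7% of the members' summed CPM in 4OHT libraries, against 41.4% and 41.6% in vehicle libraries. The sum itself ranged from 803 to 929 CPM in 4OHT and from 843 to 887 CPM in vehicle libraries, so the ranges overlapped. Levels of different genes were compared per kb of the longest coding transcript, from pooled reads of each group and therefore without an SD. On that scale Cdh1 stood at 65.7 CPM per kb in 4OHT and 80.7 in vehicle cells, and Fat1 at 29.3 in 4OHT and 24.5 in vehicle cells. Cdh3 stood at 7.54 CPM per kb in 4OHT and 11.0 in vehicle cells, and Celsr1 at 3.55 in 4OHT and 4.76 in vehicle cells. All other members lay at or below 0.917 CPM per kb in 4OHT and 1.04 CPM per kb in vehicle cells. Embryonic stem cells of both groups thus held high levels of E-cadherin and FAT1 mRNA, intermediate levels of P-cadherin and CELSR1 mRNA, and far lower levels of the rest.

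**Figure D2:**
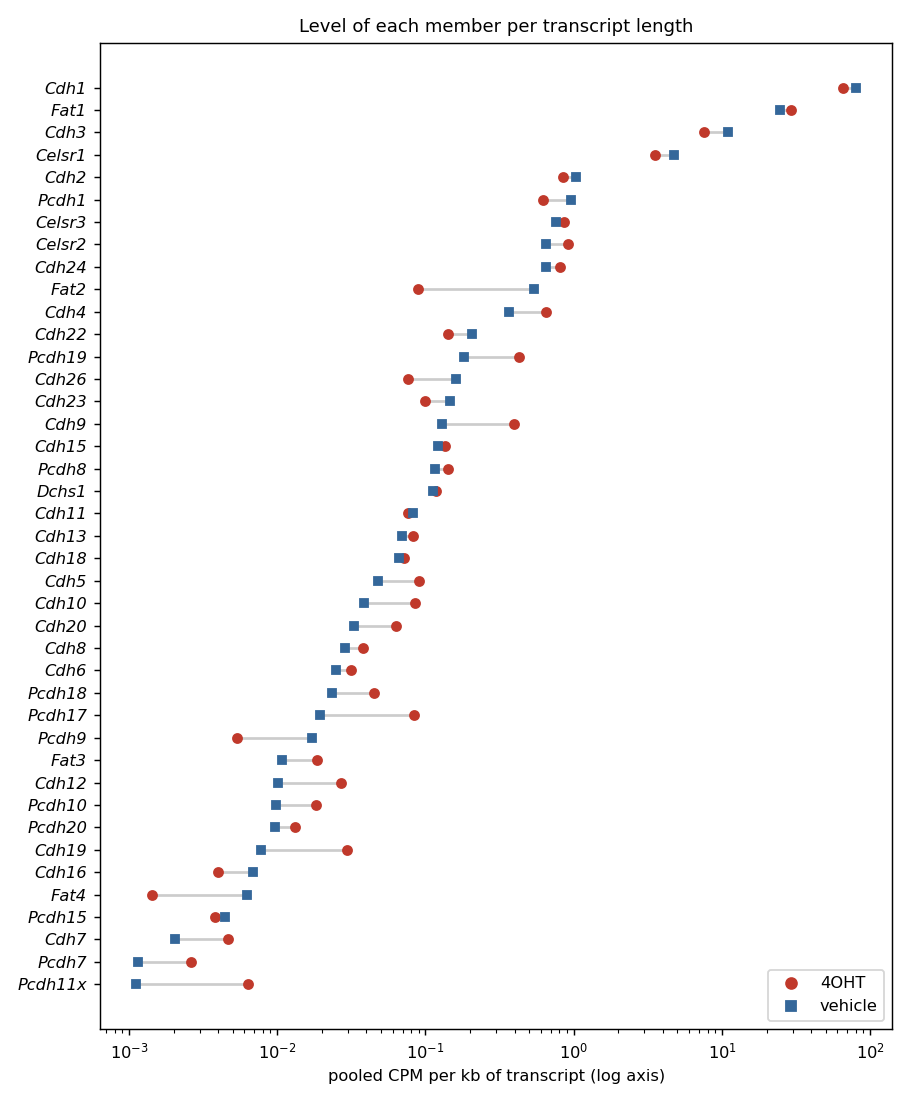
Pooled CPM per kb of transcript on a log axis for each member with reads in both groups, red circles for 4OHT and blue squares for vehicle, ordered by the vehicle level. Cdh1, Fat1, Cdh3 and Celsr1 stand apart at the top, and Fat2 shows a wide gap, at 0.0894 in 4OHT and 0.537 in vehicle cells.

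Among type I classical cadherins, the group with the strongest adhesion, Cdh1 and Cdh3 fell and Cdh4 rose. Cdh1, which encodes E-cadherin, had 297, 327 and 280 CPM in 4OHT libraries, against 355, 360 and 360 CPM in vehicle libraries. All 3 of its 4OHT values lay below all 3 vehicle values, and the mean was 301 ± 24.1 CPM in 4OHT and 358 ± 2.62 CPM in vehicle cells (SD, n = 3 each). The fall was small, to 82.1% of the vehicle level (log2 fold change -0.28, SE 0.06, 95% interval -0.41 to -0.16, edgeR adjusted p = 0.00159). Cdh3, which encodes P-cadherin and directly neighbours Cdh1 on chromosome 8, had 33.2, 51.4 and 32.5 CPM in 4OHT libraries, against 48.4, 47.1 and 48.0 CPM in vehicle libraries. The high 4OHT value is that of the shallow library, where it rests on 27 reads (95% exact Poisson interval 33.9 to 74.7 CPM, counting error only), and the deep 4OHT libraries lay below every vehicle library. The fitted fall of Cdh3, to 69.8% of vehicle, was larger than that of Cdh1 (log2 fold change -0.52, SE 0.08, edgeR adjusted p = 2.5e-05), although the difference between both falls was not tested.

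Cdh2, which encodes N-cadherin, the classical cadherin of neural and mesenchymal cells, did not pass the test. It had 4.42, 9.51 and 3.52 CPM in 4OHT libraries, against 5.24, 4.80 and 4.80 CPM in vehicle libraries. The 9.51 CPM of the shallow library rests on 5 reads, and the groups overlapped through it (log2 fold change -0.28, 95% interval -0.58 to 0.02, edgeR adjusted p = 0.179). Cdh4, which encodes R-cadherin, first described in retina, had 4.31, 0 and 3.88 CPM in 4OHT libraries, against 2.33, 1.65 and 2.84 CPM in vehicle libraries. Both deep 4OHT libraries exceeded every vehicle library, while about 2.15 reads would have been expected in 4OHT replicate 2 at their level and none was found. Cdh4 rose 1.76-fold in the fit (log2 fold change 0.81, SE 0.18, 95% interval 0.43 to 1.19, edgeR adjusted p = 0.00243). Its adjusted p was 0.587 in DESeq2 and 0.5 in quantile-normalized limma-voom with all libraries, and 0.00302 in DESeq2 without 4OHT replicate 2. Cdh15, the muscle cadherin gene, stayed between 0 and 0.614 CPM and did not pass (log2 fold change 0.18, edgeR adjusted p = 0.779).

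In a list of 16 tested regulators of epithelial-mesenchymal transition, which includes repressors and activators of Cdh1, 2 rose, 4 fell and 10 did not pass, so that 37.5% were called, beside 21.9% of all tested genes (median log2 fold change -0.17, beside -0.01 for all tested genes). Esrp1, an epithelial splicing regulator, had 10.8, 7.61 and 9.31 CPM in 4OHT libraries, against 22.1, 22.5 and 25.7 CPM in vehicle libraries (log2 fold change -1.21, SE 0.10, edgeR adjusted p = 6.42e-09). Grhl2, a transcription factor gene that maintains epithelial genes including Cdh1, had 18.8, 7.61 and 14.9 CPM in 4OHT libraries, against 34.6, 31.2 and 32.7 CPM in vehicle libraries (log2 fold change -0.97, edgeR adjusted p = 1.48e-07). Both genes had every 4OHT library below every vehicle library. Elf3, an epithelial ETS factor gene, fell by 0.45 on the log2 scale, with an edgeR adjusted p of 0.000119. Snai1, which encodes SNAIL, a repressor of Cdh1, rose to 6.86 ± 0.806 CPM in 4OHT, against 3.93 ± 0.369 CPM in vehicle cells (SD, n = 3 each, log2 fold change 0.73, edgeR adjusted p = 0.000269). The adjusted p of Snai1 was 0.112 in DESeq2 with all libraries. The remaining members past the threshold, named after their values were seen, were Zeb1 (log2 fold change 0.48) and Snai3 (-0.70), and Zeb2, Twist1, Snai2 and Ovol2 did not pass. In DESeq2 with all libraries 13 genes of the list had an adjusted p, and 0 rose and 3 fell. Those falls were Esrp1, Grhl2 and Elf3, so Zeb1 and Snai3 were not called there. Without 4OHT replicate 2 DESeq2 called 2 rises and 3 falls in the list.

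Catenins are the cytoplasmic partners of classical cadherins. Ctnnb1, Ctnna1, Ctnnd1, Ctnnd2 and Jup did not pass the edgeR test, with log2 fold changes between -0.18 and -0.04, nor did the related genes Ctnnal1 and Arvcf, at -0.0047 and 0.18. Ctnna2 and Ctnna3 had too few reads to be tested. Ctnnb1, the beta-catenin gene, averaged 1226 ± 53.9 CPM in 4OHT and 1267 ± 26.1 CPM in vehicle cells (SD, n = 3 each). In the list of 19 tested catenin and junction plaque genes, 4 rose and 3 fell, so that 36.8% were called, beside 21.9% of all tested genes (median log2 fold change -0.04). Mllt4, which encodes the actin-binding nectin partner afadin, rose to 217 ± 15.5 CPM in 4OHT, against 151 ± 8.73 CPM in vehicle cells (SD, n = 3 each, log2 fold change 0.53, edgeR adjusted p = 3.25e-06). Eps8, an actin regulator, and Shroom3, a gene for apical constriction, rose with log2 fold changes of 0.48 and 0.39. Pkp4, a p120-related protein gene, fell by 0.19 on the log2 scale, with an edgeR adjusted p of 0.0309. The remaining called genes, named after their values were seen, were the vinculin gene Vcl (log2 fold change 0.18) and the nectin genes Pvrl1 (-0.24) and Pvrl3 (-0.21). The 3 falls became 0 without vehicle replicate 1 or 2, 1 without vehicle replicate 3 or 4OHT replicate 2, and 2 without 4OHT replicate 3. In DESeq2, over all 6 libraries, 3 of the rises and none of the falls passed. Of 16 tested genes for cleavage or uptake of cadherins, 1 rose and 3 fell, a share of 25%, near the 21.9% of all tested genes. Adam9, a sheddase gene, rose by 0.35 on the log2 scale, and Capn1, a calpain gene, fell by 0.37. The gamma-secretase subunit genes Psenen and Psen2 each fell by 0.33, with adjusted p of 0.0107 and 0.0155. Without vehicle replicate 2 this list had 1 fall, and without 4OHT replicate 1 it had 2 rises and 2 falls. None of these 4 genes passed in DESeq2 with all libraries, where the adjusted p was 0.0711 for Adam9, 0.0630 for Capn1, 0.473 for Psenen and 0.461 for Psen2. In quantile-normalized limma-voom the falls of Psenen and Psen2 did not pass either, with adjusted p of 0.0534 and 0.0709.

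**Figure D3:**
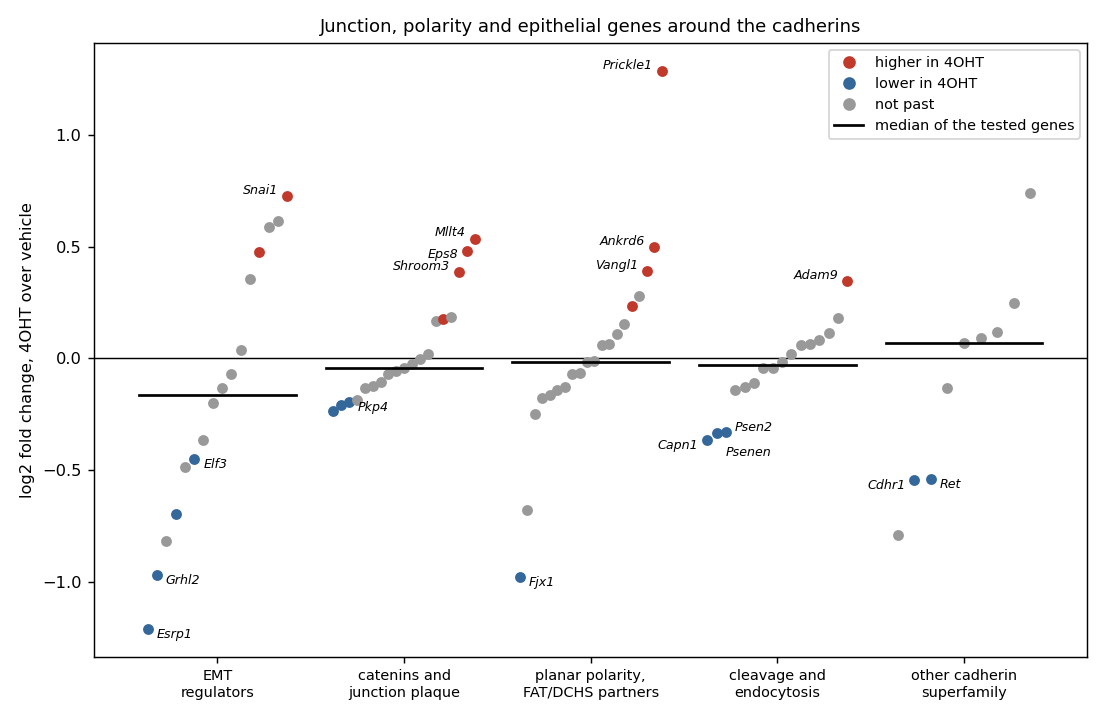
Log2 fold change (4OHT over vehicle) of each tested gene in 5 lists of genes around the cadherins, red for higher, blue for lower and grey for not past the edgeR threshold, with a line at each list's median. Esrp1, Grhl2 and Fjx1 lie lowest among the genes that fell, at -1.21, -0.97 and -0.98, and Prickle1 lies highest at 1.29.

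The type II classical cadherins, found mostly in neural, vascular and mesenchymal cells, were low throughout. Of 10 tested members 1 passed, a share of 10%, beside 21.9% of all tested genes. Cdh9, a cadherin gene of hippocampal synapses, had 1.41, 0 and 1.39 CPM in 4OHT libraries, against 0.530, 0.250 and 0.460 CPM in vehicle libraries. Both deep 4OHT libraries stood above every vehicle library, and the shallow library had no read where about 0.735 would have been expected. In the fit Cdh9 rose 3.06-fold (log2 fold change 1.61, SE 0.28, 95% interval 1.04 to 2.19, edgeR adjusted p = 0.000162), on totals of 120 reads in 4OHT and 45 in vehicle cells. An opposite-strand gene, Gm49127, overlaps 6.33% of the exon bases of Cdh9, and the use of strand in counting is not given in the sources used here. On chromosome 15 Cdh9 stands in a run of type II cadherin genes, Cdh6, Cdh9, Cdh10, Cdh12 and Cdh18, with no more than 1 other protein-coding gene between neighbours. Their log2 fold changes were 0.35, 1.61, 1.12, 1.34 and 0.09 in that order, and only Cdh9 among them passed. The edgeR adjusted p of Cdh10 was 0.0364 without vehicle replicate 1, and that of Cdh12 was 0.0192 without 4OHT replicate 3. Without 4OHT replicate 1 the log2 fold change of Cdh12 was -0.82. Cdh12 and Cdh18 were tested only because of their reads in 4OHT replicate 1.

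Of the remaining tested type II genes, Cdh5, Cdh20 and Cdh24 had log2 fold changes of 0.88, 0.93 and 0.32, and Cdh11 and Cdh22 of -0.12 and -0.55, with edgeR adjusted p between 0.183 and 0.869. Without vehicle replicate 3 the edgeR adjusted p of Cdh5 was 0.0378. Cdh5 is the VE-cadherin gene of endothelium and Cdh11 is typical of mesenchyme. Cdh7, Cdh8 and Cdh19 had too few reads to be tested, at most 8 in a first replicate. Among cadherins outside both classical types, Cdh17 fell. Cdh17, which encodes liver-intestine cadherin, had no read in any 4OHT library, against 14, 6 and 10 reads (0.265, 0.300 and 0.384 CPM) in vehicle libraries. Counted against a floor of 3 reads over the whole 4OHT group (0.0348 CPM), its level was at least 8.72-fold lower in 4OHT than in vehicle cells (edgeR adjusted p = 9.44e-05, and 0.00107 without 4OHT replicate 2). It entered the test only through its vehicle reads, and its adjusted p was 0.0886 in quantile-normalized limma-voom. Cdh26, Cdh23 and Cdh13 had log2 fold changes of -1.10, -0.56 and 0.23 and did not pass. The adjusted p of Cdh26 was 0.0511, but 0.0327 when vehicle replicate 1 was left out and 0.0253 when 4OHT replicate 1 was left out. Cdh23, a gene of the hair-cell tip link, had an adjusted p of 0.0664, and 0.0305 without 4OHT replicate 1.

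The FAT genes moved in opposite directions. Fat2, an atypical cadherin gene known from cerebellar granule cells, had 1.41, 0 and 1.13 CPM in 4OHT libraries, against 8.21, 7.40 and 7.29 CPM in vehicle libraries. Every 4OHT library lay far below every vehicle library. The reads totalled 112 in 4OHT and 772 in vehicle cells, and at the level of the deep 4OHT libraries only 0.667 reads were expected in 4OHT replicate 2. The level fell to 16.8% of vehicle (log2 fold change -2.58, SE 0.16, 95% interval -2.91 to -2.24, edgeR adjusted p = 1.37e-10). It passed in each of the 13 other settings tried, with the highest adjusted p, 0.000363, in quantile-normalized limma-voom. Fat1, the member with the most reads in 4OHT libraries, had 451, 449 and 403 CPM in 4OHT libraries, against 378, 352 and 340 CPM in vehicle libraries, with no overlap. Its rise was 1.21-fold (log2 fold change 0.27, SE 0.06, 95% interval 0.14 to 0.40, edgeR adjusted p = 0.00363), and the adjusted p was 0.0513 in quantile-normalized limma-voom. An opposite-strand gene overlaps 3.11% of the exon bases of Fat1. Fat3 did not pass (30 reads in 4OHT and 20 in vehicle cells, log2 fold change 0.76, edgeR adjusted p = 0.202), and Fat4 was not tested, with 2 reads in 4OHT and 10 in vehicle cells. Dchs1, whose product binds FAT4, had 1.26, 0 and 1.33 CPM in 4OHT libraries, against 1.38, 0.949 and 1.04 CPM in vehicle libraries (log2 fold change 0.11, 95% interval -0.37 to 0.58, edgeR adjusted p = 0.788). Dchs2 was not analysed here.

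The CELSR genes likewise went both ways. Celsr1, needed for planar polarity in mouse skin and inner ear, had 38.5, 49.5 and 38.8 CPM in 4OHT libraries, against 54.0, 49.4 and 49.0 CPM in vehicle libraries. The 49.5 CPM of the shallow library rests on 26 reads (95% exact Poisson interval 32.3 to 72.5 CPM), and without it both 4OHT libraries lay below the vehicle libraries. The level fell to 76.5% of vehicle (log2 fold change -0.39, SE 0.07, edgeR adjusted p = 0.000344). In DESeq2 with all libraries the adjusted p was 0.0503. Celsr2, which acts in cilia formation and neuron wiring, had 9.66, 7.61 and 9.86 CPM in 4OHT libraries, against 7.70, 6.75 and 5.49 CPM in vehicle libraries (1.44-fold, log2 fold change 0.52, SE 0.12, edgeR adjusted p = 0.00336). In DESeq2 with all libraries the adjusted p of Celsr2 was 0.267. The shallow library, with 4 reads, fell within the vehicle range and the deep 4OHT libraries above it. Celsr3, an axon guidance gene, had means of 9.69 ± 0.625 CPM in 4OHT and 8.56 ± 0.875 CPM in vehicle cells (SD, n = 3 each) and did not pass (log2 fold change 0.19, 95% interval -0.04 to 0.41, edgeR adjusted p = 0.25).

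In the list of 20 tested planar polarity and FAT/DCHS partner genes, 4 rose and 1 fell, a share of 25%, near the 21.9% of all tested genes (median log2 fold change -0.01). The fall was that of Fjx1, the mouse homologue of the Drosophila kinase four-jointed, which in flies phosphorylates Fat and Dachsous. Fjx1 had 8.87, 15.2 and 11.8 CPM in 4OHT libraries, against 21.4, 21.4 and 17.8 CPM in vehicle libraries, with no overlap (log2 fold change -0.98, SE 0.11, edgeR adjusted p = 1.6e-06). Prickle1, a core polarity gene, rose to 7.77 ± 3.24 CPM in 4OHT, against 2.43 ± 0.256 CPM in vehicle cells (SD, n = 3 each, log2 fold change 1.29, edgeR adjusted p = 2.53e-06). Vangl1 and Ankrd6, also polarity genes, rose with log2 fold changes of 0.39 and 0.50, as did the Dishevelled gene Dvl3 with 0.23, and the partners Vangl2, Fzd3, Fzd6, Dvl1 and Dvl2 did not pass. Without 4OHT replicate 1 this list had 5 rises and 2 falls, and without 4OHT replicate 3 likewise. With a block for replicate number it had 6 rises and 2 falls.

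Among the nonclustered protocadherins, 2 genes of the delta-2 group rose and 1 gene of the delta-1 group fell. That is 50% of 4 tested delta-2 genes and the only tested delta-1 gene, beside 21.9% of all tested genes. Pcdh19, whose product binds N-cadherin and whose human gene is mutated in a form of epilepsy, had 4.07, 3.81 and 4.95 CPM in 4OHT libraries, against 2.21, 1.65 and 1.38 CPM in vehicle libraries. Every 4OHT library lay above every vehicle library (2.41-fold, log2 fold change 1.27, SE 0.18, 95% interval 0.90 to 1.64, edgeR adjusted p = 1.36e-05). Pcdh17, a synaptic and axonal adhesion gene, had 1.08, 0 and 0.776 CPM in 4OHT libraries, against 0.265, 0.150 and 0.192 CPM in vehicle libraries. The deep 4OHT libraries stood above all vehicle libraries, on totals of 83 reads in 4OHT and 22 in vehicle cells (4.23-fold, log2 fold change 2.08, SE 0.34, edgeR adjusted p = 8.65e-05). The other tested delta-2 genes, Pcdh8 and Pcdh18, had log2 fold changes of 0.29 and 0.91 and did not pass, and Pcdh10 was too low to test. Pcdh1, a delta-1 gene known from airway epithelium, had 3.38, 3.81 and 3.33 CPM in 4OHT libraries, against 5.56, 5.05 and 4.60 CPM in vehicle libraries, again without overlap. It fell to 65.5% of the vehicle level (log2 fold change -0.61, SE 0.14, edgeR adjusted p = 0.00234), and its adjusted p was 0.391 in DESeq2 with all libraries and 0.0128 without 4OHT replicate 2. The delta-1 genes Pcdh7, Pcdh9 and Pcdh11x, the protocadherins Pcdh12, Pcdh15 and Pcdh20, and the kidney cadherin gene Cdh16 had at most 5 reads in a first replicate and were not tested.

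**Figure D4:**
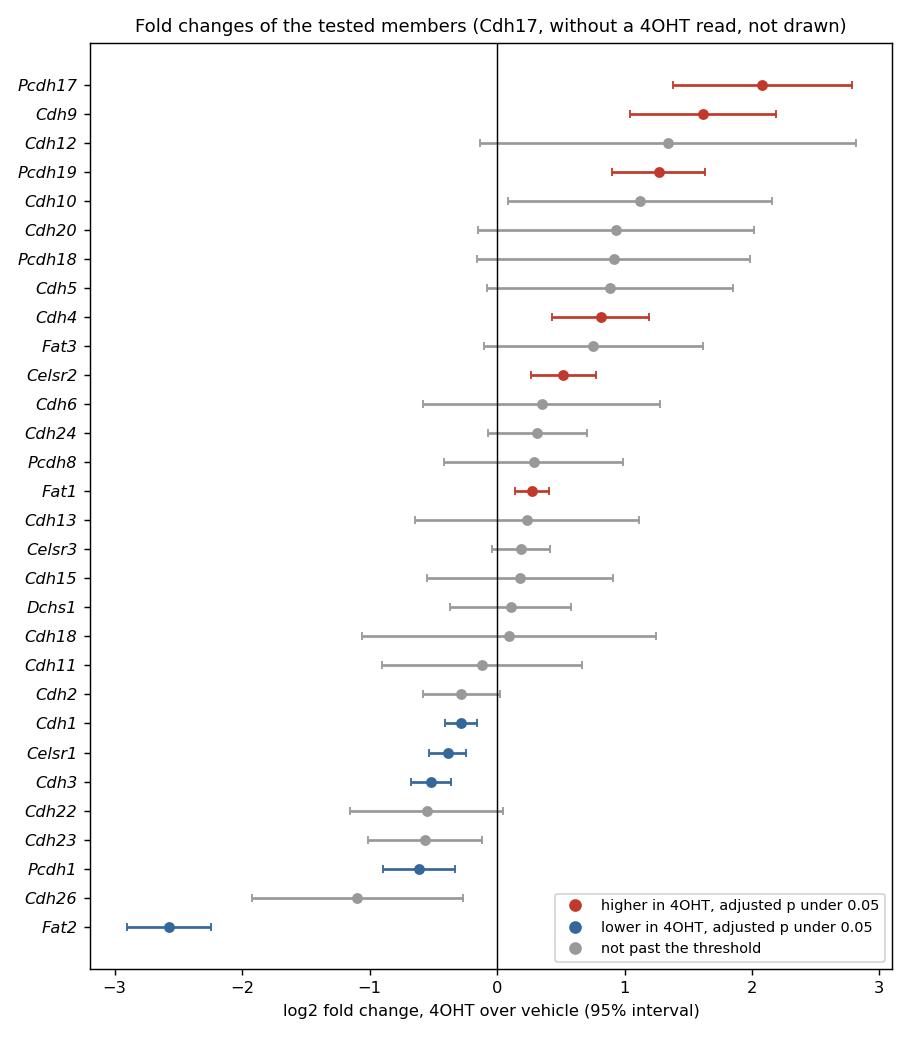
Log2 fold change (4OHT over vehicle) with its 95% interval for the tested members other than Cdh17, which had no 4OHT read. Red marks members higher and blue members lower in 4OHT at an edgeR adjusted p under 0.05, and grey those not past it. Fat2 stands alone at -2.58, and Pcdh17, Cdh9 and Pcdh19 lead the rises at 2.08, 1.61 and 1.27.

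Windows at the annotated starts of 4 members are shown, called promoters here, and they differ in base composition. They belong to the member with the largest fall among those with reads in both groups and to the members with the largest rises. In the Fat2 window the bases before the start end in ttcttacccag, as an intron does, and an atg follows soon after. The Fat2 window may therefore be intron and coding exon and not a promoter, which was not tested. The sequences run from 250 bases before to 50 bases after the start in RefSeq on build GRCm38.p6, at chr11:55312208-55312507, minus strand (Fat2), chr14:84443313-84443612, plus strand (Pcdh17), chr15:16728665-16728964, plus strand (Cdh9) and chrX:133688944-133689243, minus strand (Pcdh19). The submitters' processing notes name mm9, whose coordinates are not used here. Capitals mark CG, the dinucleotide at which mammalian DNA is methylated, which reads the same on both strands.
Fat2: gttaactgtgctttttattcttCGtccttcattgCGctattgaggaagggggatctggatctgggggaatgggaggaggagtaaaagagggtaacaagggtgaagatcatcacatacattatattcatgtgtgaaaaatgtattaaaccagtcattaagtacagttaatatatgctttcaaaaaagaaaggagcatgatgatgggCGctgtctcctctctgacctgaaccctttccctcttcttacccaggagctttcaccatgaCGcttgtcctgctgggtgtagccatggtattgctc
Pcdh17: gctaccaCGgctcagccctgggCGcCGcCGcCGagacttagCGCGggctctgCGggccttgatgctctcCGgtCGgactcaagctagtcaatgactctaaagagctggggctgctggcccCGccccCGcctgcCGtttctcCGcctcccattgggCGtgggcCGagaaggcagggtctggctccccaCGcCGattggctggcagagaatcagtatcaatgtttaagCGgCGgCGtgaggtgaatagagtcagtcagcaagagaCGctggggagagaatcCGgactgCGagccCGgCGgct
Cdh9: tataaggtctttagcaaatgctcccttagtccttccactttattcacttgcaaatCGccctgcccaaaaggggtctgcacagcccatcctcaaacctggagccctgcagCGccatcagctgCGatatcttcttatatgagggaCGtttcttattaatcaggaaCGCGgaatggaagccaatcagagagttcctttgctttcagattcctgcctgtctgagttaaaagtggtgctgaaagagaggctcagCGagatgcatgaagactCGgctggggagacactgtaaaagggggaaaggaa
Pcdh19: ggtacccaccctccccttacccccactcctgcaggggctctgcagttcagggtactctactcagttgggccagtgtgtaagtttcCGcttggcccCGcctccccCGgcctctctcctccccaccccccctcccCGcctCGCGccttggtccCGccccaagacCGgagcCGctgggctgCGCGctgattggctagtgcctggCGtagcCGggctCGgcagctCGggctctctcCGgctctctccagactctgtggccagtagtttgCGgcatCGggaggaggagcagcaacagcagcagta
Fat2 held 4 CG, Pcdh17 26, Cdh9 8 and Pcdh19 18, beside a median of 7 over all 32851 promoters of that length, of which 94.6% held at least 1. Of all promoters, 31.4% had fewer CG than Fat2, 83.1% fewer than Pcdh17, 51.35% fewer than Cdh9 and 70.3% fewer than Pcdh19. The delta-2 windows were thus the CG-rich ones of these 4, and the low number in Fat2 may not be that of a promoter. The other called members with a promoter in the table, Fat1 and Celsr2, both rose and held 2 and 40 CG. The Fat1 window likewise holds a stretch like an intron end, ttctattacag, shortly before an atg. Its 2 CG may therefore not be those of a promoter. Over the 31 member promoters the median was 14 CG. A link between CG number and direction was not tested. Methylation was not measured. The E-box CAGGTG, a sequence to which SNAIL and ZEB proteins can bind, was searched on both strands (CACCTG on the other). It occurred in 7 of 31 member promoters, 3 of them starts of Cdh7, and so in 5 of the 28 member genes with a promoter in the table, beside 20.2% of all promoters. Among members past the threshold, Celsr2 had 2 matches and Fat1 had 1, and none was found in the 4 windows above. The Fat1 match, in ttacaggtgg, overlaps the stretch like an intron end and may not lie in a promoter. Cdh1, Cdh3, Cdh4, Cdh17, Celsr1 and Pcdh1 were not searched. A match is not evidence of binding.

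Lists of markers of other cell types differed in whether and how they moved with treatment. Of 8 tested primitive and visceral endoderm markers 7 rose and 0 fell, so that 87.5% were called, beside 21.9% of all tested genes. The 10 endoderm markers in the table summed to 47.6 to 63.9 CPM in 4OHT and 7.59 to 8.82 CPM in vehicle libraries. Ttr had no read in any library and Afp had 3 reads, all in 4OHT libraries. Fibroblast markers summed to 8.18 to 9.51 CPM in 4OHT and 17.6 to 18.8 CPM in vehicle libraries. Most of that sum was Thy1, while Postn had no read and Dcn, Lum and Col3a1 had at most 2 reads in a library. Of 3 tested fibroblast markers 0 rose and 1 fell, a share of 33.3%. Neural markers summed to 97.7 to 107 CPM in 4OHT and 137 to 143 CPM in vehicle libraries. Of 6 tested neural markers 1 rose and 1 fell (33.3%, median log2 fold change 0.03). Trophoblast markers summed to 91.3 to 98.9 CPM in 4OHT and 88.4 to 90.1 CPM in vehicle libraries. Of 6 tested, 2 rose and 2 fell (66.7%). Endothelial or blood markers summed to 97.0 to 123 CPM in 4OHT and 100 to 110 CPM in vehicle libraries. Of 3 tested, 2 rose and 0 fell (66.7%). In DESeq2 with all libraries no trophoblast and no endothelial or blood marker passed. The part of these cells in the cadherin changes was not tested.

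Among relatives outside the symbol rule, the clustered protocadherins fell by a small amount as a block of rows. Of 43 tested rows 25 fell and 0 rose, so that 58.1% were called, beside 21.9% of all tested rows (median log2 fold change -0.22). No row was higher in DESeq2 either, nor at an unadjusted p under 0.05 in edgeR. These 25 rows comprise 22 gamma cluster rows and 3 alpha rows marked -g, and their means were nearly alike, 65.2 to 80.8 CPM in 4OHT and 72.5 to 86.7 CPM in vehicle cells. Gamma transcripts share their last exons, so the rows can hold the same reads and are not 25 separate observations. Their edgeR adjusted p lay between 0.00843 and 0.0245, and without vehicle replicate 1, or without vehicle replicate 2, 1 row passed. DESeq2 called 0 with all libraries and 25 without 4OHT replicate 2. Of 9 tested desmosomal, calsyntenin and other superfamily genes 22.2% were called, near that share. Cdhr1 and Ret, a receptor tyrosine kinase gene with cadherin repeats, fell by 0.54 each on the log2 scale, with edgeR adjusted p of 0.0123 and 0.0328. In DESeq2 these were 0.573 and 0.730. The fall of Ret did not pass on leaving out any library but 4OHT replicate 2, with adjusted p of 0.0616 to 0.111, and that of Cdhr1 was at 0.0599 without vehicle replicate 3. Dsg2, the main desmoglein gene here, averaged 78.3 CPM in 4OHT and 86.8 CPM in vehicle cells and did not pass.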

How the data were processed

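The authors deposited whole-number read counts per gene symbol for 23999 genes in 6 libraries, with no size factor applied, judging by totals that differ between libraries. STAR, DESeq and build mm9 are named per the submitters' processing notes, without versions, while the sources used here give neither the counting tool nor the annotation nor the strand setting. The members and lists were chosen with earlier results of these data known.

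Every row with 10 or more counts in vehicle replicate 1 or 4OHT replicate 1 (15814 rows) was fitted with edgeR 4.0.16 in R 4.3.3, with TMM factors (0.988 to 1.02), a quasi-likelihood model with treatment as its term, Benjamini-Hochberg adjustment over all rows and a threshold of 0.05. Fold changes set 4OHT over vehicle, use a prior count of 0.125 and follow the deep libraries more than the mean CPM does. Alternatives used DESeq2 1.42.0, limma 3.58.1, other filters and scaling, a replicate block and leaving out each library. Members given in full were Cdh1, Cdh2, Cdh3 and those past the threshold with a log2 change of at least 0.5, and Fat1 and Celsr1, chosen after their values were seen. Of each list up to 4 genes with the smallest adjusted p were named, and other list genes were picked after their values were seen.

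To see whether replicate numbers pair the samples, each library's deviation from its group mean was correlated with that of its namesake over 3648 genes (log2 CPM over 6). The correlations were 0.57, 0.14 and 0.39 for replicates 1, 2 and 3, all above the minimum of 0.1 used for pairing by number. No label says that the numbers pair the samples. Also, 4OHT replicate 3 correlated more with vehicle replicate 2 (0.45) than with vehicle replicate 3. The main fit has no pairing term, and only the replicate block uses the numbers. Libraries of a group differed beyond sampling noise (lowest chi-square per degree of freedom 1.18). Transcript lengths and exon overlaps came from GENCODE vM21, and gene order and promoters from RefSeq, both on GRCm38. No other gene matched a member's transcript over 50% of its length at 95% identity (blastn 2.17.0). Intervals on reads cover counting error only.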

Additional observations from a re-analysis of the deposited data

How the results depend on the processing

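The 12 member calls were kept, with unchanged directions, under RLE size factors, without a low-count filter, with the replicate block (12 members and 4341 genes, and no member call changed) and without each single library. Leaving out a library gave 12 to 14 called members, 2478 to 4245 called genes and 17 to 53 called partner genes. The low partner counts, 21 and 17 against 49 with all libraries, came without vehicle replicates 1 and 2, where 1 clustered protocadherin row passed instead of 25. DESeq2 with all libraries called 977 genes (567 higher, 410 lower), 5 members (Cdh1, Cdh3, Fat1, Fat2 and Pcdh19, 2 higher and 3 lower) and 10 partner genes. It gave no adjusted p for 15 of the 31 members, and called 7.48% of the genes to which it gave one. Without 4OHT replicate 2, an alternative chosen after seeing the data, DESeq2 called the same 12 members and 2403 genes (1134 lower, 15.5% of those with an adjusted p). Quantile-normalized limma-voom called 2199 genes (989 lower) and 8 of the 12 members (3 higher), without Cdh4, Cdh9, Cdh17 and Fat1, and the cause was not tested. With filterByExpr 21 members were tested and 10 passed, since Cdh17 and Pcdh17 were not tested. None of the 12 called members and none of the list genes named by their adjusted p reversed. Depth limits the members under 1 CPM, where 4OHT replicate 2 holds 0 to 2 reads.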
